A study of Homo sapiens with 2 samples.

Results

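Some entries of the miRNA catalogue have mature sequences that also lie inside structural RNAs, the abundant RNAs of the ribosome, the spliceosome and translation. Their levels were compared between K562 cells transduced with a QKI5-overexpressing lentivirus and K562 cells transduced with a GFP lentivirus, with 1 small RNA library in each group. K562 is a human erythroleukaemia cell line, and QKI5 is the nuclear isoform of Quaking, an RNA-binding protein of the STAR family. Small RNA was isolated with a miRNA kit and sequenced on an Ion Proton instrument. The entries were chosen by name, 9 in all, with earlier results of these data known, and 8 of them had a row among the 2218 listed entries. The remaining one, miR-3653, whose hairpin overlaps the small nucleolar RNA SNORD125 in GENCODE, was not analysed here. The 8 were grouped by parent RNA: U2 snRNA (miR-1246), mitochondrial 16S rRNA (miR-1973 and miR-4485), tRNA (miR-1260a, miR-1260b and miR-4454) and the ribosomal RNA precursor (miR-3648 and miR-3687). With 1 library per group there is no replicate check, so the comparisons below describe these libraries, and the 95% intervals cover counting error only.

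A miRNA is cut from a hairpin by Drosha and Dicer and loaded into an Argonaute protein, where its seed (bases 2 to 8) pairs with target mRNAs. Structural RNAs are far more abundant than most miRNA precursors, and pieces of them of miRNA size are read by the same small RNA protocols. U2 snRNA recognises the branch point of introns in the spliceosome. The 16S rRNA is the large ribosomal RNA of mitochondria, transcribed from mitochondrial DNA, of which the nuclear genome also carries copies. Mature tRNAs end in CCA, which is added after transcription. The rRNA precursor is cut into the rRNAs of the cytoplasmic ribosome, and its spacers are discarded.

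Mature sequences, 5′ to 3′ with the seed in capitals, show what tells the entries apart. They are those of RefSeq on GRCh38.p14, which held 7 of the 8 entries, miR-4485 under the name miR-4485-3p.
hsa-miR-1246: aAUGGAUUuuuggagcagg
hsa-miR-1973: aCCGUGCAaagguagcaua
hsa-miR-4485: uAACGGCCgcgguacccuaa
hsa-miR-1260a: aUCCCACCucugccacca
hsa-miR-1260b: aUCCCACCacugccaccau
hsa-miR-4454: gGAUCCGAgucacggcacca
hsa-miR-3648: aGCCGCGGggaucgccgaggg
Only miR-1260a and miR-1260b shared a seed, and no other listed entry with a sequence had a seed of any of the 7. They differ by U9A, counted from 1 at the 5′ end of miR-1260a, and by an extra 3′ U in miR-1260b. The 7 sequences were 18 to 21 bases long, against a median of 22 bases over the 1947 listed entries with a sequence.

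Exact matches to rRNA, snRNA, small nucleolar RNA or mitochondrial tRNA transcripts of GENCODE were found for 3 of the 7 sequences. miR-4485 and miR-1973 both lie once in MT-RNR2, the 16S rRNA gene of 1559 bases, and are neighbours there. miR-4485 covers its bases 893 to 912 and miR-1973 its bases 912 to 930, so that they share 1 base and together span 38 bases. miR-1246 covers bases 94 to 112 of the 191 bases of RNU2-1, a U2 gene, and lies in 19 of the 90 GENCODE transcripts named for U2. The windows below show these stretches in GENCODE release 29 on GRCh38 with 15 flanking bases on each side, the entries in capitals.
MT-RNR2, chrM:2548-2615, plus strand: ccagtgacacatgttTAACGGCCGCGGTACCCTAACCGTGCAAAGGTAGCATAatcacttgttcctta
RNU2-1, chr17:43233851-43233899, minus strand: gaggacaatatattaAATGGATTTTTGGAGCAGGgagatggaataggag

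For the tRNA entries the bases before the final CCA were compared with the tRNA genes that fall inside RefSeq promoter windows, allowing 1 mismatch. RefSeq holds 465 tRNA genes, and those outside such windows were not compared, so a closer match elsewhere could have been missed. miR-1260a matched TRL-AAG2-2 and TRL-AAG2-4, genes of a leucine tRNA, over 15 bases that end at the last base of the gene, with the substitution U9G. miR-1260b matched the same genes over the same stretch with the substitution A9G. miR-4454 matched TRH-GTG1-3 and TRH-GTG1-9, genes of a histidine tRNA, over 17 bases up to the last base of the gene, with the substitution G2A. In each of these tokens the entry's base comes first, then the position from its 5′ end, then the base in the tRNA. The capitals below mark the compared stretch, read on GRCh38.p14.
TRL-AAG2-4, chr16:22297195-22297221, plus strand: gcgtgggttcgaATCCCACCGCTGCCA
TRH-GTG1-9, chr15:45201194-45201222, plus strand: caacctcggttcGAATCCGAGTCACGGCA
miR-1260a and miR-4454 themselves end in CCA, as did 32 of the 1947 entries with a sequence (1.64%), and in miR-1260b the CCA is followed by U. Among the rRNA precursor entries, the hairpin gene MIR3648-1 lies within RNA45SN2, an rRNA precursor gene, in RefSeq. The copy MIR3648-2, from which the sequence above was read, lies within no such gene there, and miR-3687 was not placed by this comparison.

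Each entry also has a hairpin of its own in the genome, given here on GRCh38, while the submitters' processing notes name hg19. The miR-1246 sequence lies between genes at chr2:176601024-176601042 on the minus strand. miR-1973 at chr4:116299750-116299768 (plus strand) lies in an exon of MTRNR2L13, and miR-4485 at chr11:10508277-10508296 (minus strand) in an exon of MTRNR2L8. These genes are nuclear copies of mitochondrial 16S sequence. miR-1260a at chr14:77266231-77266248 (plus strand) lies opposite an exon of the neuroglobin gene NGB, and miR-1260b at chr11:96341447-96341465 (plus strand) opposite an exon of MAML2, a Notch coactivator. miR-4454 at chr4:163093607-163093626 (minus strand) lies between genes. miR-3648 and miR-3687 each have copies on chromosome 21. The hairpins MIR3648-1 and MIR3687-1 lie in an intron of the noncoding RNA gene FP671120.1, on its strand. MIR3648-2 and MIR3687-2 lie between genes in the same annotation. The sources used here do not say how reads that fit both a hairpin and a structural RNA were assigned, so the source of a read cannot be told apart where the sequences are identical.

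Levels are in RPM, reads per 1000000 reads of a library, and whole reads could be recovered from them. The library totals were inferred by taking the smallest value above 0 in each library as 1 read. They came to 6553945 reads in the QKI5 library, 59.5% of them on listed entries, and 23262340 reads in the GFP library, 66.3% of them on listed entries. A read was worth 0.153 RPM with QKI5 and 0.0430 RPM with GFP. Markers of the erythroid lineage were abundant, with miR-451a, miR-144-3p and miR-486-5p at 293 to 2187 RPM with QKI5 and 528 to 2798 RPM with GFP. The leukocyte markers miR-223-3p and miR-142-3p stood higher, at 9840 to 10426 RPM with QKI5 and 8889 to 9441 RPM with GFP. The neuronal miR-9-5p (332 RPM with QKI5, 378 RPM with GFP) and the epithelial miR-200c-3p and miR-141-3p (27.8 to 41.7 RPM with QKI5, 25.2 to 38.2 RPM with GFP) were present too. The liver miR-122-5p, the muscle miR-133a-3p and miR-206 and the neuronal miR-124-3p were at most 0.915 RPM in either library. That highest value was the QKI5 level of miR-133a-3p, whose GFP level was 0.0860 RPM. The muscle marker miR-1-3p had no row under that name. For the entry listed as miR-1, the QKI5 library gave 1.98 RPM and the GFP library 0.172 RPM. The part of other cell types in the ratios below was not tested. QKI5 mRNA was not measured by these libraries, so the overexpression was not checked.

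By deposited RPM, the U2 snRNA and mitochondrial 16S rRNA entries were 10.7 to 46.6 times as high in the QKI5 library. The tRNA entries were within 1.27-fold between the libraries on that scale, and the rRNA precursor entries were at 1 or 2 reads. On log2(RPM + 0.153), 3 of the 6 entries with a mean of at least 1 RPM were at least 2-fold higher with QKI5, and 0 were at least 2-fold lower. Over all 604 entries with such a mean, 21.2% passed the same bound upwards and 7.45% downwards, so that 74.0% of the calls were higher, against 27.8% under a trimmed-mean scaling and 49.4% under quantile normalization. The higher entries miR-1246 and miR-4485 were under 1 RPM in the GFP library and had this mean only through the QKI5 library. None of the 3 tRNA entries, which alone were among the 200 most abundant, passed 2-fold, against 15% of those 200 upwards and 7% downwards. With no filter 5 of the 8 entries were higher, the rRNA precursor entries at 1 or 2 reads included, against 23.8% of the 1995 entries with a read upwards and 7.27% downwards. By an exact binomial test of the reads, which compares these libraries and not the conditions, 3 entries were called higher and 2 lower, against 14.5% and 6.82% of the 1995 (21.4% either way).

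**Figure D1:**
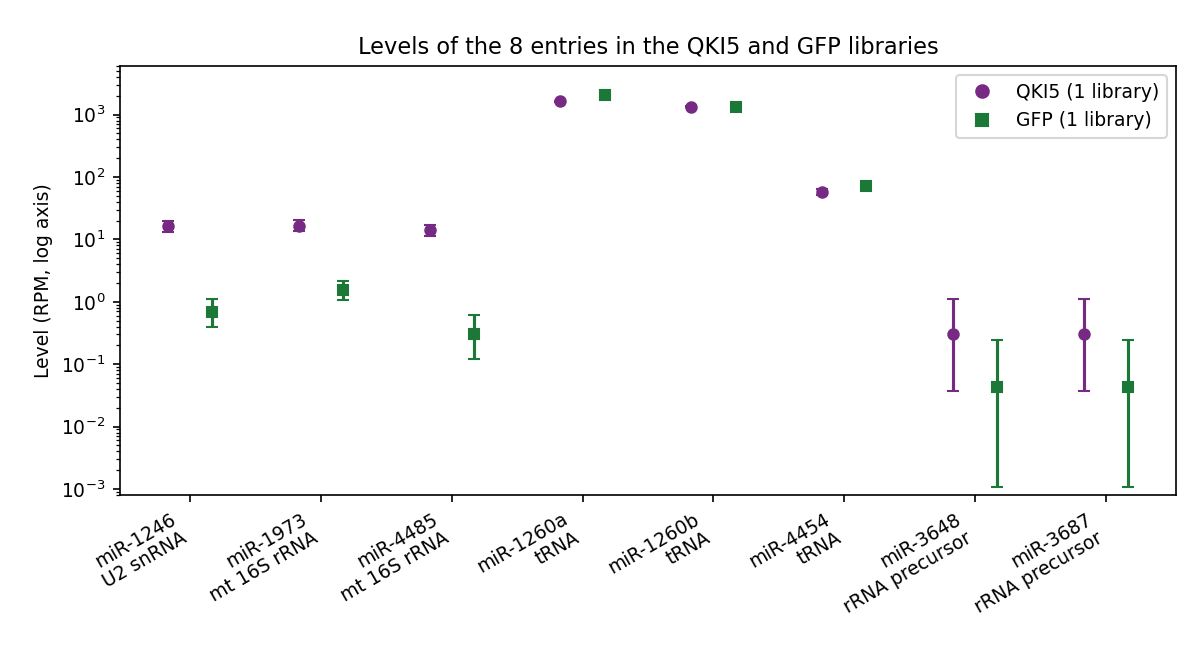
Level of each of the 8 entries in RPM on a log axis, in the QKI5 library (circles) and the GFP library (squares), with exact 95% Poisson intervals for counting error. The 2 libraries lie apart for miR-1246, miR-1973 and miR-4485, close together for the tRNA entries, and at 1 or 2 reads for miR-3648 and miR-3687.

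hsa-miR-1246, the U2 entry, was read 106 times in the QKI5 library (16.2 RPM), against 16 times in the GFP library (0.688 RPM). The QKI5 library was thus the high one, by a ratio of 23.5 with a 95% counting interval of 13.8 to 42.6. The log2 ratio, which the pseudocount shrinks, was 4.28. By level miR-1246 stood at rank 302 of the listed entries with QKI5 and at rank 637 with GFP.

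hsa-miR-4485, the upstream of the mitochondrial neighbours, was read 92 times with QKI5 (14.04 RPM), against 7 times with GFP (0.301 RPM). Its ratio was 46.6 (21.8 to 119), and its log2 ratio of 4.97 ranked 1 among the 604 entries. That rank depended on the setting: it was 2, behind miR-197-3p, with either larger pseudocount, 3 with the GC trend removed and 4 with thinned GFP reads, and by plain ratio miR-1290, at 47.9 (17.7 to 182), stood above it. miR-1973, which begins on the last base of miR-4485 in the 16S rRNA, was read 109 times with QKI5 (16.6 RPM), against 36 times with GFP (1.55 RPM). Its ratio was 10.7 (7.31 to 16.1), with a log2 ratio of 3.30. Both mitochondrial entries were high in the QKI5 library, and summed they came to 30.7 RPM with QKI5, against 1.85 RPM with GFP, a ratio of 16.6 (11.9 to 23.6).

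The mitochondrial neighbours were not in 1 proportion in both libraries. There were 1.18 miR-1973 reads per miR-4485 read in the QKI5 library (95% counting interval 0.889 to 1.58) and 5.14 in the GFP library (2.26 to 13.7), which rests on 7 miR-4485 reads. For miR-1246 there were 1.15 reads per miR-4485 read with QKI5 (0.863 to 1.54) and 2.29 with GFP (0.890 to 6.57), and these intervals overlap. At these depths the proportion of miR-1246 to miR-4485 could not be shown to differ.

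A ratio of at least 10 was seen for 8 of the 604 entries (1.32%), and 3 of the 8 were miR-4485, miR-1246 and miR-1973. By log2 ratio they stood at ranks 1, 4 and 6 as reported. The other entries of that size, named here after their values were seen, were miR-1290 (54 reads with QKI5 and 4 with GFP), miR-4791 (62 and 6), miR-197-3p (5930 and 1668), miR-8077 (20 and 7) and miR-1 (13 and 4). Of all 8, only miR-197-3p (71.7 RPM) and miR-1973 (1.55 RPM) reached 1 RPM in the GFP library. The others had a mean of at least 1 RPM only through the QKI5 library, so the filter favoured entries high there. Since the 9 entries were also chosen with their values known, these ranks are a description.

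**Figure D2:**
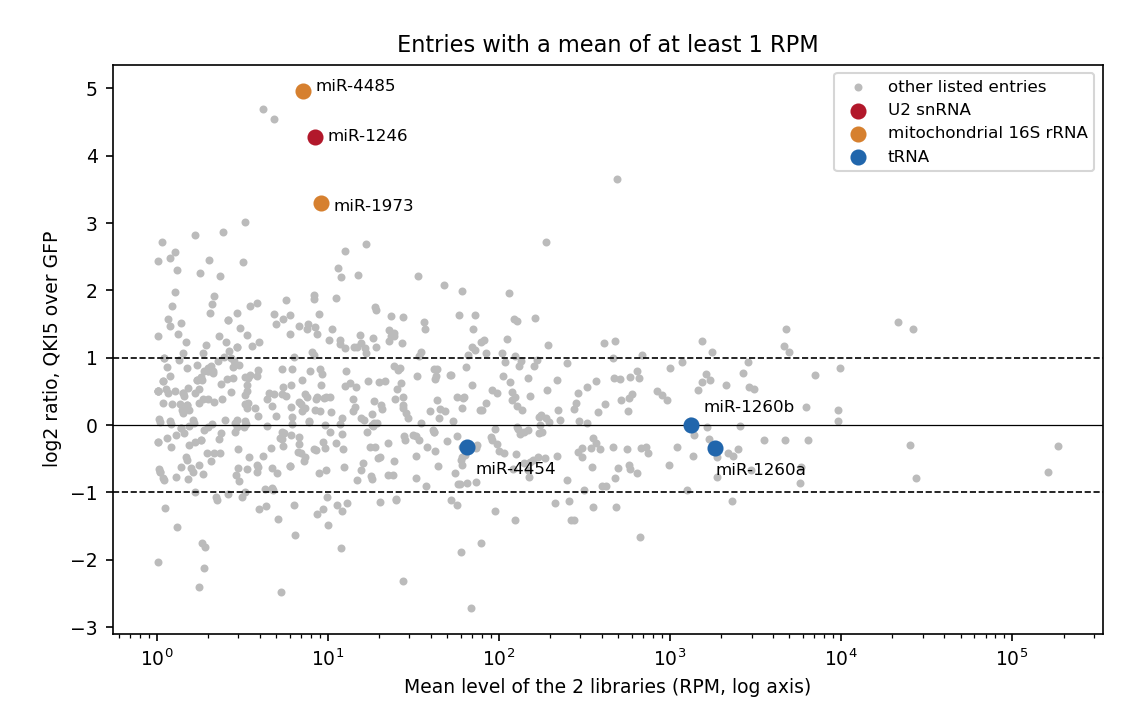
log2 ratio of QKI5 over GFP against the mean level of the 2 libraries (RPM, log axis) for the 604 entries with a mean of at least 1 RPM. Dashed lines mark 2-fold, and the U2 and mitochondrial entries lie above 3 while the tRNA entries lie between -0.34 and 0.0048.

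The tRNA entries were by far the most abundant of the group and held 98.5% of its reads with QKI5 and 99.9% with GFP. miR-1260a, whose sequence follows the 3′ end of leucine tRNA, was read 10676 times in the QKI5 library (1629 RPM), against 47964 times in the GFP library (2062 RPM). Its ratio was 0.790 (0.774 to 0.807), so it was lower with QKI5 beyond counting error, and it ranked 37 by level with QKI5 and 30 with GFP. miR-1260b was read 8781 times with QKI5 (1339.8 RPM), against 31063 times with GFP (1335 RPM). Its ratio of 1.003 (0.980 to 1.03) gave no direction, and its log2 ratio of 0.0048 was -0.57 under the trimmed-mean scaling and 0.16 with listed reads as the total.

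miR-4454, whose sequence follows the 3′ end of histidine tRNA, was read 378 times with QKI5 (57.7 RPM), against 1682 times with GFP (72.3 RPM). Its ratio was 0.798 (0.712 to 0.892), close to that of miR-1260a. For both miR-1260a and miR-4454 the log2 ratio stayed below 0 under all 8 alternative settings of scaling, pseudocount, depth and GC content. It was lowest under the trimmed-mean scaling, at -0.92 for miR-1260a and -0.90 for miR-4454. Summed, the tRNA entries came to 3026 RPM with QKI5, against 3469.5 RPM with GFP, a ratio of 0.872 (0.859 to 0.886), and as a share of the listed reads they made up 0.509% (95% Wilson interval 0.502% to 0.516%) with QKI5 and 0.523% (0.520% to 0.527%) with GFP.

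The pair that shares a seed thus differed in its proportion between the libraries. There were 1.22 miR-1260a reads per miR-1260b read with QKI5 (1.18 to 1.25) and 1.54 with GFP (1.52 to 1.57), so the intervals do not overlap. Their first 18 bases differ at a single position, and the assignment of reads within a mismatch of both is likewise not stated there.

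miR-3648 and miR-3687, grouped under the rRNA precursor, each had 2 reads in the QKI5 library (0.305 RPM) and 1 read in the GFP library (0.0430 RPM). Both libraries lie under a floor of 3 reads, which is 0.458 RPM with QKI5 and 0.129 RPM with GFP, so a difference in either entry was not detectable at this depth. Summed, they had 4 reads with QKI5 and 2 with GFP, a ratio of 7.10 whose counting interval, 1.02 to 78.5, starts just above 1. These entries set the middle of the group. The median log2 ratio over all 8 entries, 1.23, is theirs, since 3 entries lie above them and 3 below, and it stands beside a median of 0.12 over the 1995 entries with a read. With a pseudocount of 1 RPM the median of the group was 0.32, with one 10 times as large 0.22, and with the GC trend removed, over the 7 entries with a sequence, 0.40.

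**Figure D3:**
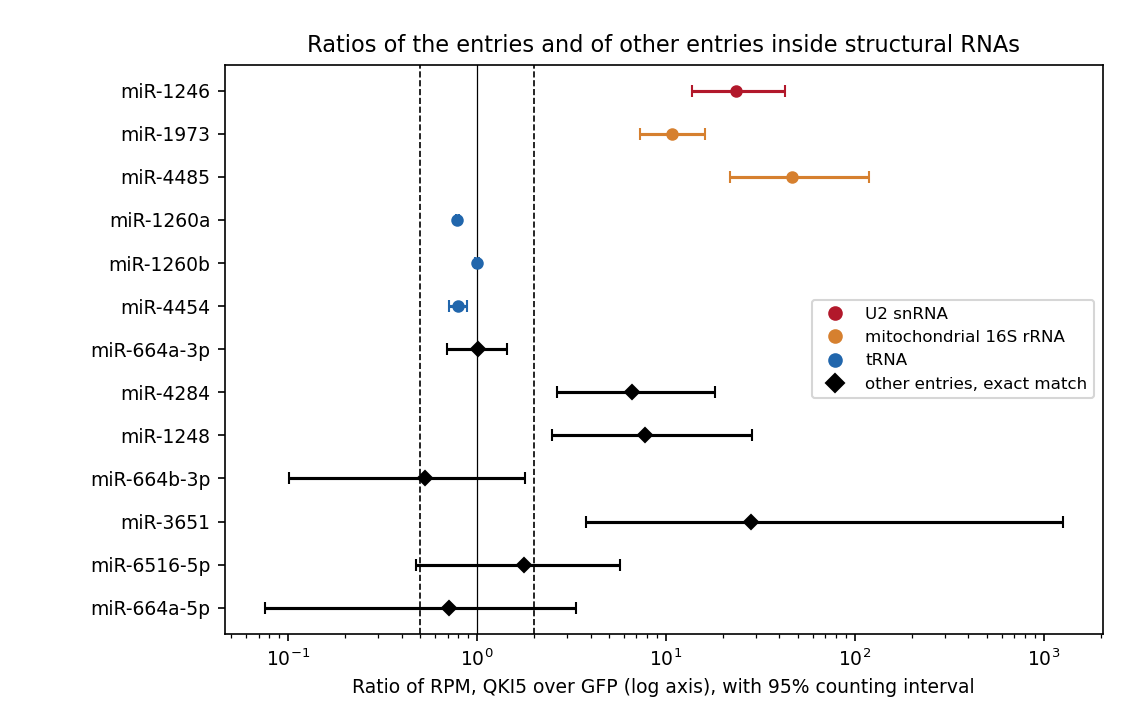
Ratio of RPM, QKI5 over GFP, on a log axis with exact 95% counting intervals, for the 6 entries with a mean of at least 1 RPM (circles) and for the other entries that match a structural RNA without a mismatch and have more than 3 reads in a library (diamonds). The intervals of miR-1246, miR-1973 and miR-4485, and those of miR-4284, miR-1248 and miR-3651, lie wholly above the dashed line at 2-fold, while the tRNA entries and miR-664a-3p lie near 1.

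Outside the group, 10 further listed entries matched an annotated mitochondrial tRNA or small nucleolar RNA without a mismatch, counting Cajal body RNAs among the latter class. Only miR-664a-3p and miR-4284 of these had a mean of at least 1 RPM, and miR-1291, miR-664b-5p and miR-6516-3p were at or under 3 reads in both libraries. Of the 10, 8 had a log2 ratio above 0, against 53.5% of the 1995 entries with a read. Among the 8 were miR-1291, miR-664b-5p and miR-6516-3p, at those few reads, and miR-664a-3p, with a log2 ratio of 0.015. miR-4284, which lies in MT-TF, the mitochondrial phenylalanine tRNA, was read 15 times with QKI5 (2.29 RPM), against 8 times with GFP (0.344 RPM). Its ratio was 6.66 (2.65 to 18.1). It was under 1 RPM in the GFP library and had a mean of at least 1 RPM only through the QKI5 library. A direction shared with the entries in mitochondrial 16S rRNA was not tested.

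Small nucleolar RNAs guide the chemical modification of rRNA, and their entries had ratios on both sides of 1. miR-664a-3p in SNORA36B, the most abundant exact match outside the group, was read 41 times with QKI5 (6.26 RPM), against 144 times with GFP (6.19 RPM), a ratio of 1.01 (0.696 to 1.44). miR-1248 in SNORA81 was read 11 times with QKI5 (1.68 RPM), against 5 times with GFP (0.215 RPM), a ratio of 7.81 (2.50 to 28.7). miR-3651 in SNORA84 had 8 reads with QKI5 and 1 with GFP, a ratio of 28.4 (3.81 to 1260). miR-664b-3p, found in SNORA36A and SNORA36C, had 3 reads with QKI5 and 20 with GFP, a ratio of 0.532 (0.101 to 1.80). Of the 9 entries on a list of small nucleolar RNA entries, 3 had a mean of at least 1 RPM and 0 of these differed by 2-fold, against 21.2% upwards and 7.45% downwards of all 604. The other listed entries of that level, miR-3607-5p and miR-3607-3p, had ratios of 0.842 (0.618 to 1.13) and 1.52 (0.705 to 3.09).

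Base composition and length, which the choice by name did not use, were set beside the ratios. Over 536 entries with a sequence and a mean of at least 1 RPM, the log2 ratio was higher by 0.26 for each 10 percentage points of GC. The entries that were high with QKI5 had a GC content of 42.1% (miR-1246), 47.4% (miR-1973) and 60.0% (miR-4485), and the tRNA entries 57.9% to 65.0%. With the GC trend removed, miR-1246, miR-1973 and miR-4485 had log2 ratios of 4.45, 3.34 and 4.68. The 37 other entries of at most 20 bases with a mean of at least 1 RPM had a median log2 ratio of 0.61, against 0.24 for all 604, and 15 of the 37 passed 2-fold upwards with QKI5 and 1 downwards, against 21.2% and 7.45% of the 604. The tRNA entries, of 18 to 20 bases, and the U2 and mitochondrial entries, of 19 to 20, had like lengths. The part of length in the ratios was not tested.

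**Figure D4:**
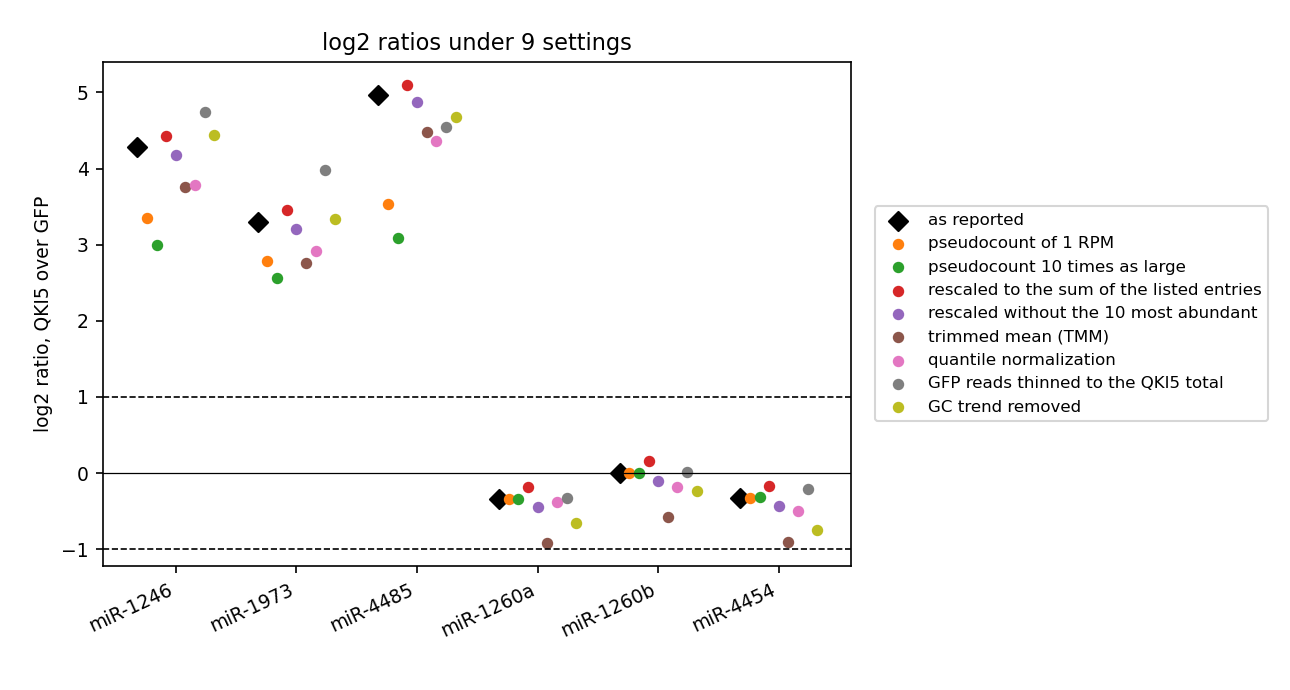
log2 ratio of QKI5 over GFP for the 6 entries with a mean of at least 1 RPM under 9 settings, the reported one as a diamond. miR-1246, miR-1973 and miR-4485 stay between 2.56 and 5.10 on the log2 scale, and the tRNA entries between -0.92 and 0.16.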

How the data were processed

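The values the authors deposited are RPM, although the table's name says RPKM: 100.0% of the values above 0 were whole multiples of a step fixed per column, within a tolerance of 0.1 of a read. Per the submitters' processing notes, Bowtie 0.12.3 and hg19 were used. The sources used here give no miRNA annotation, mismatch limit, multi-mapping rule or strand setting. From the RPM, reads were recovered, and plain ratios of QKI5 over GFP were given with exact conditional binomial (Clopper-Pearson) 95% intervals. Log2 ratios used a pseudocount of 0.153 RPM, the larger of the smallest values above 0, which shrinks the ratios of low entries. It equals 1 QKI5 read, so that 1 QKI5 read against 0 GFP reads still counted as 2-fold higher. The design assumed the mean filter of 1 RPM, a threshold of 2-fold and no test. An exact binomial test of the reads with Benjamini-Hochberg adjustment at 0.05, which compares these 2 libraries and not the conditions, called 426 of 1995 entries (21.4%). The GC trend was a straight line fitted to the log2 ratio. The entries, lists and rule for named entries (all members, list entries over the filter, the 5 most abundant other exact matches) were chosen with earlier results of these data known. Sequences came from RefSeq and GENCODE release 29. Calculations, tested on simulated data, used Python 3.11.15, numpy 2.4.6, scipy 1.17.1, pandas 2.3.3, statsmodels 0.14.6 and edgeR 4.0.16 for the trimmed mean.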

Additional observations from a re-analysis of the deposited data

How the results depend on the processing

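miR-1246, miR-1973 and miR-4485 were at least 2-fold higher with QKI5 under all 8 alternative settings of pseudocount, scaling, depth and GC content. Their lowest log2 ratios were 2.999, 2.56 and 3.09, with a pseudocount 10 times as large. miR-1260b turned to -0.10 when rescaled without the 10 most abundant entries, -0.57 under the trimmed mean, -0.19 under quantile normalization and -0.23 with the GC trend removed. The median of all entries with a mean of at least 1 RPM moved by -0.58 under the trimmed mean, -0.26 under quantile normalization, 0.16 with listed reads as the total and -0.11 without the 10 most abundant. Counts of all entries higher and lower, 128 and 45 as reported, were 54 and 140 under the trimmed mean, 82 and 84 under quantile normalization, 475 and 145 with no filter, 30 and 14 among the 200 most abundant, 83 and 29 among the 400, 215 and 111 at 1.5-fold, 50 and 13 at 3-fold, 80 and 19 with intervals wholly beyond 2-fold, and 290 and 136 by the exact binomial test of the reads. The members counted as higher were 3, but 5 with no filter and 0 among the 200 most abundant, which hold only the tRNA entries. By the exact binomial test 2 members were called lower. The members' share of the listed reads was 0.986 times as large with QKI5. It was 0.885 on the library totals and, without miR-1260a, turned to 1.14. Other causes of these shifts were not tested. Thinning the GFP reads to the depth of the QKI5 library left, in 1 draw, 3 reads each of miR-1246 and miR-4485. No paired analysis was possible because each group has 1 library.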
